A study of Mus musculus with 6 samples.

Results

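The L1, Ncam and contactin genes encode cell adhesion molecules that neurons and crest-derived cells carry on their surface. The 8 genes described here are L1cam, Chl1, Nrcam and Nfasc (L1 family), Ncam1 and Ncam2 (Ncam family), and Cntn1 and Cntn2 (contactins). They were chosen by name, each matched exactly 1 line, and together they are 8 of the 23233 gene lines used from the authors' deposited table. The series compared messenger RNA of mouse guts from embryos at stage E10.5. It holds 3 wildtype samples and 3 Ret null samples, in which both copies of Ret, encoding the receptor kinase for GDNF family ligands, are null. The strain is given as C57BL/6J for all 6, and the series calls them male, a label that the level of Xist in Ret null gut, given below, does not bear out. How the allele was made and what it removes are not in the labels, nor is the number of embryos in a sample. Each genotype has a single FPKM value per gene (fragments scaled to transcript length and library size), so the spread between embryos cannot be shown and the depth is unknown.

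All of these proteins have a chain of immunoglobulin domains followed by fibronectin type III repeats outside the cell. L1 family proteins span the membrane and can hold the spectrin cytoskeleton through ankyrins. Contactins lack a cytoplasmic part and are tied to the membrane by a lipid anchor. Ncam1 carries long chains of polysialic acid in the embryo and can act with the co-receptor Gfra1 as a receptor for GDNF, apart from Ret. In the embryonic gut L1cam is known from the surface of migrating enteric neural crest cells, which give rise to the enteric neurons and glia.

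Of the 8 genes, 4 fell in Ret null gut, 0 rose, 1 was tested without passing, and 3 were not tested by the authors. L1cam, Nfasc, Nrcam and Ncam2 fell by 1.87-fold to 2.96-fold, while the Ret null value of Ncam1 was 88.1% of its wildtype value. A gene is said to rise or fall only where the authors' deposited table, which comes from a Cuffdiff test, gives a q under 0.05. Where no q is printed beside a gene said to rise or fall, its q in the authors' deposited table lies between 0.000775 and 0.0299. By that rule 8.88% of all 13430 tested lines fell and 5.69% rose. Of the 3360 tested lines whose higher value was between 1 and 5 FPKM, where L1cam and Nfasc lie, 13.4% fell and 7.08% rose. At an unadjusted p under 0.05, 0 members were higher. The authors' test statistic can also be read directly, as a normal deviate with adjustment over all tested lines (the normal deviate below), and 2 members were then lower and 0 higher, where 2.78% and 1.72% of tested lines passed in these directions. The median log2 fold change over all 8 members was -0.79, beside -0.0029 over the 17613 lines above 0 in both genotypes. With 1 FPKM added to each value these medians were -0.30 and 0.00. Ret itself, the check of the genotype, was at 8.80 FPKM in wildtype against 0.0354 FPKM in Ret null gut.

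Which genes were tested bears on these counts. No line whose higher genotype value lay under 0.871 FPKM was tested, among 5101 such lines above 0. This is the lowest such value of a tested line and not a cutoff. Lhx1, named after its value was seen, was not tested at 0.922 FPKM in wildtype. Chl1, Cntn1 and Cntn2 lie under 0.871 FPKM. Nrcam (0.923 FPKM in wildtype) and Ncam2 (0.913 FPKM) lie just over it, and only through their wildtype value. A line that enters by 1 genotype at this edge has its other value below it. Of the 109 tested lines under 1 FPKM in both genotypes, 13.8% fell, and their median absolute log2 fold change was 0.38, beside 0.14 over all tested lines. The falls of Nrcam and Ncam2 are therefore given as values, without weight on their number.

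**Figure D1:**
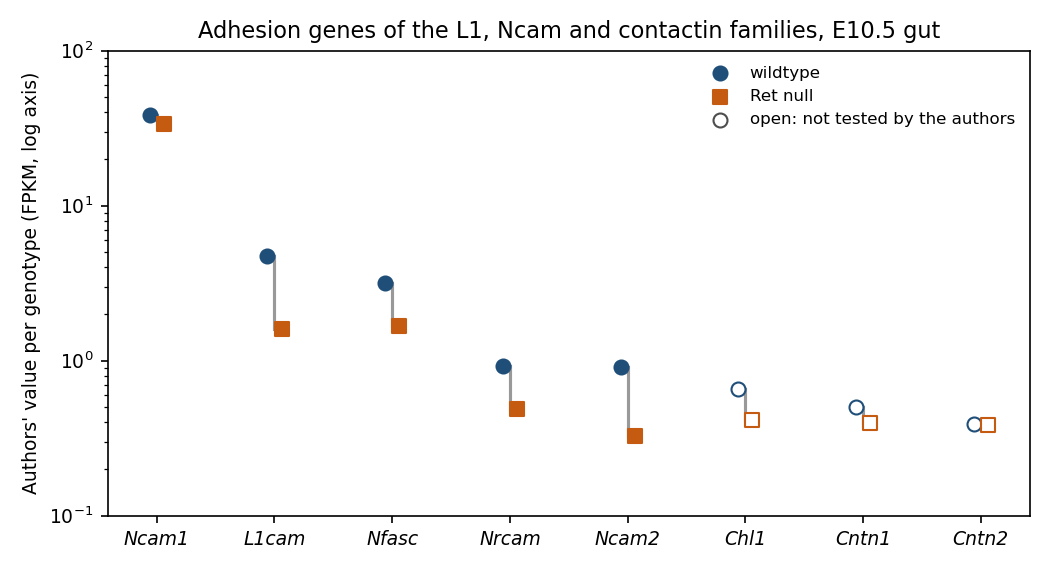
FPKM of each gene on a log axis, with circles for wildtype and squares for Ret null gut; each point is the authors' value for a genotype, open where the gene was not tested. Ncam1 stands far above the others in both genotypes (38.3 and 33.7 FPKM), and the longest drops are those of L1cam (4.73 to 1.60) and Ncam2 (0.913 to 0.325).

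L1cam, the founding member of the L1 family and a gene mutated in a human X-linked hydrocephalus, had the largest fall of the 8. It stood at 4.73 FPKM in wildtype against 1.60 FPKM in Ret null gut, so the Ret null value was 33.8% of the wildtype value. The log2 fold change was -1.57 ± 0.30, with q = 0.000775 in the authors' deposited table. This error, like those below, is the standard error that the authors' test statistic implies for the log2 fold change. Only 1.24% of tested lines had a lower log2 fold change, or 3.28% of the tested lines whose higher value was between 1 and 5 FPKM. Taken as a normal deviate, the statistic of L1cam gave an adjusted p of 2e-05. The line spans chromosome X, 73853780 to 73880834 (mm10), on the minus strand. The longest coding transcript of L1cam in GENCODE M21 has 27 exons.

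L1cam is X-linked, and RNAs tied to the sex chromosomes differed between the genotypes. Xist, the RNA of X inactivation in females, was at 0.136 FPKM in wildtype against 31.8 FPKM in Ret null gut. The Y-linked genes Ddx3y, Eif2s3y, Kdm5d and Uty, chosen after their values were seen, were 1.64-fold to 1.99-fold lower in Ret null gut. The Xist value in Ret null gut goes against the series calling all samples male. With 1 value per genotype the sex of each sample cannot be read, so sex may differ between the genotypes. The median log2 fold change of 473 tested X-linked lines was -0.05, beside 0.01 for 12952 autosomal lines. Of the X-linked lines 12.5% fell, beside 8.72% of the autosomal ones. The part of sex in the fall of L1cam was not tested.

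Nfasc encodes neurofascin, which gathers sodium channels at the axon initial segment and the nodes of myelinated axons. It fell from 3.16 to 1.69 FPKM, a log2 fold change of -0.90 ± 0.26 (in the authors' deposited table q = 0.000775). Of the tested lines with a higher value between 1 and 5 FPKM, 9.83% had a lower log2 fold change. With the statistic as a normal deviate the adjusted p was 0.0157, so Nfasc and L1cam passed both ways. Nfasc lies on chromosome 1, 132564690 to 132741797, exactly the span of the GENCODE gene. L1cam and Nfasc changed places in the order of levels, L1cam being higher in wildtype and Nfasc in Ret null gut. Without values per sample it cannot be said whether these neighbours differ beyond their spread.

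Nrcam, a partner of neurofascin at nodes and of semaphorin receptors on growing axons, stood at 0.923 FPKM in wildtype against 0.491 FPKM in Ret null gut. Its log2 fold change of -0.91 ± 0.44 was close to that of Nfasc but less precise, and q was 0.00881 in the authors' deposited table. As a normal deviate the statistic gave an adjusted p of 0.372, which does not pass. The line spans chromosome 12, 44328885 to 44601846.

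Chl1, the close homolog of L1, was at 0.656 FPKM in wildtype against 0.411 FPKM in Ret null gut, a log2 fold change of -0.67 that was not tested. It lies on chromosome 6, 103510876 to 103733035, and ends 14.4 Mb before the start of Ret. Of 202 other tested lines within 20 Mb of Ret, 9.41% fell and 4.95% rose, close to the shares over all tested lines. Summed over the 4 genes, which FPKM allows as a value per transcript length, the L1 family stood at 9.47 FPKM in wildtype against 4.19 FPKM in Ret null gut, 2.26-fold lower. The sum rests mostly on L1cam and Nfasc.

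Ncam1 was the most abundant of the 8 in both genotypes. It was at 38.3 FPKM in wildtype against 33.7 FPKM in Ret null gut, the smallest fold change of the 5 tested genes. The log2 fold change was -0.18 ± 0.18 and did not pass (in the authors' deposited table q = 0.286). Of tested lines at 20 FPKM or more, where errors are small, 8.13% had a lower log2 fold change. Ncam1 made up most of the Ncam family's 79.1% share of the summed FPKM of all 8 genes in wildtype, a share that was 87.3% in Ret null gut. The other 7 genes together went from 11.3 to 5.29 FPKM, 2.13-fold lower. The ratio of L1cam to Ncam1 was 0.124 in wildtype and 0.0474 in Ret null gut. The line of Ncam1 spans chromosome 9, 49502146 to 49799069.

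Ncam2, the olfactory cell adhesion molecule, had the second-largest fold change. It was at 0.913 FPKM in wildtype against 0.325 FPKM in Ret null gut, a log2 fold change of -1.49 ± 0.59 (in the authors' deposited table q = 0.00318). Ncam2 went from the fifth place among the 8 genes in wildtype to the last in Ret null gut. The error is the widest among the tested members, the adjusted p from the statistic as a normal deviate was 0.174, and with 1 FPKM added the log2 fold change was -0.53. Its gene is the longest of the set, spanning 424 kb of chromosome 16 (81200697 to 81624287).

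Cntn1, which binds the phosphatase Ptprz1 and pairs with Cntnap1 beside nodes, was at 0.501 FPKM in wildtype against 0.394 FPKM in Ret null gut. Cntn2, a contactin of early axons also known as TAG-1, was at 0.388 and 0.385 FPKM. Their log2 fold changes of -0.35 and -0.01 were not tested. Cntn2 lies beside Nfasc on chromosome 1, on the same strand, with 21.7 kb between the 2 lines. Its Ret null value was 99.1% of wildtype, while that of Nfasc was 53.4%. The authors' test says nothing of either contactin, since both lie under the lowest level at which a line was tested.

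**Figure D2:**
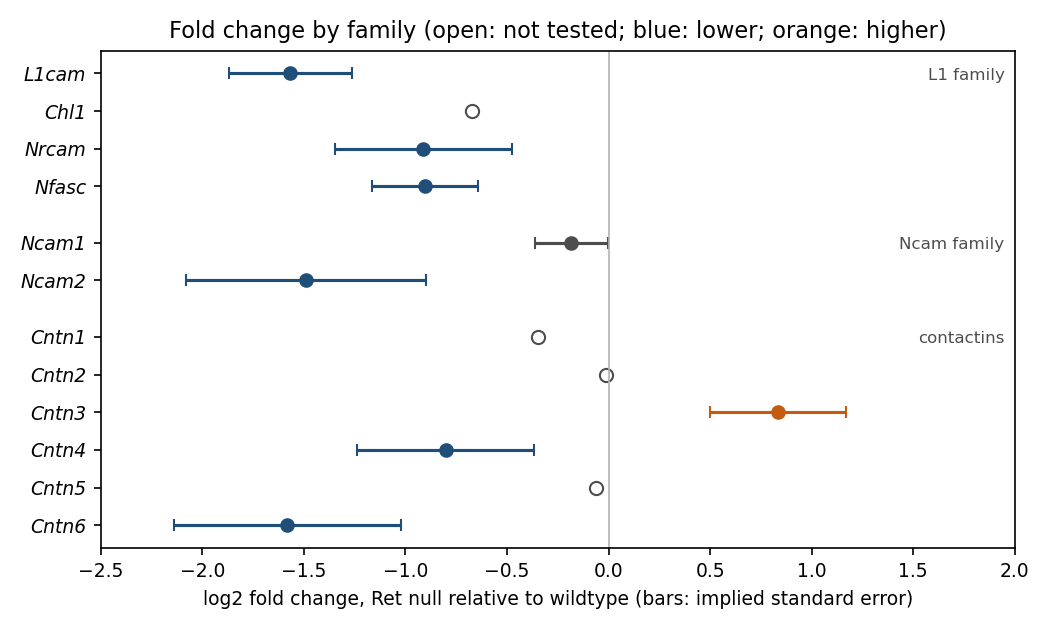
Log2 fold change of the 8 genes and of the 4 remaining contactins, grouped by family; bars are the standard error implied by the authors' test statistic, and open circles were not tested. All 4 L1 family values lie below 0, the Ncam genes differ (-0.18 and -1.49), and among contactins Cntn3 lies above 0 and Cntn4 and Cntn6 below.

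Upstream sequence is shown for 3 of the 4 genes that fell, to let their start regions be compared. RefSeq windows of build GRCm38.p6 were found for 7 of the 8 genes, Ncam1 being the one without. That of Nfasc overlaps an annotated exon and is not printed. Each line gives the 250 bases before the most upstream listed start, 5′ to 3′ on the gene's strand, with E-boxes (CANNTG, the motif bound by basic helix-loop-helix factors) in capitals.
L1cam: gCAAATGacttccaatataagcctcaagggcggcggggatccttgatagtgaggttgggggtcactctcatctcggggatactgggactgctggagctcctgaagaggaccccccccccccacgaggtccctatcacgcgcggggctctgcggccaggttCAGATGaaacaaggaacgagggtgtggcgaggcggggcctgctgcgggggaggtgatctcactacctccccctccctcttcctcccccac
Nrcam: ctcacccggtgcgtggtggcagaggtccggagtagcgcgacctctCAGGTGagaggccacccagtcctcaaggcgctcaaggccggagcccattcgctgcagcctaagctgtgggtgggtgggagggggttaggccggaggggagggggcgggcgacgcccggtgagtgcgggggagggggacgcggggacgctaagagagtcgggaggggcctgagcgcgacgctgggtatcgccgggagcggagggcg
Ncam2: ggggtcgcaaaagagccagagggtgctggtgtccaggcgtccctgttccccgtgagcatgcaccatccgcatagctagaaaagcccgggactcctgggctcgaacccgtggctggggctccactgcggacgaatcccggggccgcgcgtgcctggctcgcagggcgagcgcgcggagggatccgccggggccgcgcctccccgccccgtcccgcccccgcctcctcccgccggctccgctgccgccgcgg
The L1cam window (chrX:73880835-73881084, minus strand) lies within an intron of a longer L1cam model in GENCODE. Those of Nrcam (chr12:44328635-44328884, plus strand) and Ncam2 (chr16:81200447-81200696, plus strand) overlap no annotated gene. L1cam holds 2 E-boxes, Nrcam holds 1 and Ncam2 holds 0, and 66.2% of all 32851 windows of this length hold at least 1. The motif reads the same on both strands. Nrcam and Ncam2 are rich in CpG, with 25 and 32 such pairs, beside 12 in L1cam and a median of 6 over all windows. GGGCGG, the core of the Sp1 GC box, occurs once in L1cam and in Nrcam and at 2 places in Ncam2 on either strand, and in 32.7% of all windows. The short motif ACAAAG, bound by Sox factors, was searched on both strands too, and 16.5% of all windows hold it. The homeodomain motif TAATTA is in 4.84% of them, and the box TATAAA in 12.4%. None of these occurs in the printed windows.

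The remaining contactins moved both ways. Of 4 genes, 3 were tested, 2 fell and 1 rose. Cntn6 went from 1.20 to 0.400 FPKM (-1.58 ± 0.56) and Cntn4 from 1.37 to 0.786 FPKM (-0.80 ± 0.43; in the authors' deposited table q = 0.0145). Cntn3 rose from 1.30 to 2.31 FPKM (0.83 ± 0.34; in the authors' deposited table q = 0.00145). Cntn5, named after its value was seen, was near 0.03 FPKM in both genotypes. The Ret null values of Cntn4 and Cntn6 lie under 0.871 FPKM, so these lines, like Nrcam and Ncam2, were tested only through their wildtype value. With the statistic as a normal deviate, 0 of the 3 calls among these contactins passed. Like Chl1, the genes Cntn3, Cntn4 and Cntn6 lie on chromosome 6, ending 15.7, 11.5 and 13.3 Mb before Ret. Of 7 contactin-associated genes, whose proteins pair with contactins, 2 were tested and 0 passed at a q under 0.05 or with the normal deviate. At an unadjusted p under 0.05 in the Cuffdiff test, 1 was lower and 1 higher. Cntnap1, the partner of Cntn1, had a log2 fold change of -0.42 ± 0.33 (in the authors' deposited table p = 0.0355, q = 0.167). Cntnap2, named after its value was seen, had one of 0.59 ± 0.50 (in the authors' deposited table p = 0.0456, q = 0.199).

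Genes that join these molecules to the cytoskeleton were divided. Of 10 tested ankyrins, spectrins, ERM linkers and Dcx, 4 fell and 2 rose. Dcx, a microtubule protein of young neurons that binds neurofascin, fell from 2.12 to 1.29 FPKM (-0.72 ± 0.28). Ank2, encoding ankyrin-B, fell from 9.27 to 6.62 FPKM (-0.48 ± 0.21), and the spectrin gene Sptan1 had a log2 fold change of -0.37 ± 0.19 (in the authors' deposited table q = 0.0042). The fourth fall was Sptbn1, named after its value was seen. Ezr, which encodes the epithelial linker ezrin, rose from 29.3 to 46.0 FPKM (0.65 ± 0.18), and was the only call of this list left with the normal deviate. Rdx, the highest of those that did not pass, stood at 80.9 and 75.1 FPKM.

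The machinery that modifies these molecules showed no call. Of 6 tested genes of polysialic acid synthesis, which supplies the sugar of Ncam1, 0 passed, and log2 fold changes ran from -0.18 to 0.26. Nans, the highest of them, was at 39.0 and 42.2 FPKM. Of 6 proteases that cut L1cam and their complex partners, 0 passed, with log2 fold changes from -0.13 to 0.18 and Ncstn at 45.9 and 45.4 FPKM. In both lists 0 genes reached an unadjusted p under 0.05 in the Cuffdiff test and 0 passed with the normal deviate.

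Among extracellular partners, 3 of 10 tested genes fell and 1 rose. Tnc, encoding the matrix protein tenascin-C that binds contactin, fell from 24.9 to 13.5 FPKM (-0.89 ± 0.18). Ptprz1 went from 1.16 to 0.557 FPKM (-1.06 ± 0.39; in the authors' deposited table q = 0.00206), and Ptprg, whose protein binds several contactins, fell from 13.0 to 9.31 FPKM. Nrp2, a semaphorin receptor that associates with Nrcam, rose from 42.9 to 59.9 FPKM (0.48 ± 0.18). Mdk, the most abundant of the list, stood at 999 and 1028 FPKM. Ptprz1 was tested only through its wildtype value, since its Ret null value lies under 0.871 FPKM. Of 5 integrin genes for receptors of L1cam, Itgav and Itga9 fell and Itga5 rose, each by under 0.4 on the log2 scale (in the authors' deposited table q = 0.00206 for Itgav and Itga5 and 0.0245 for Itga9). Itgb1 stood at 127 FPKM in both genotypes, and 0 of the 3 integrin calls passed with the normal deviate.

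Of 12 signalling partners, all tested, 1 fell and 5 rose. Gap43, a growth cone protein that acts downstream of Ncam1, fell from 43.5 to 23.3 FPKM (-0.90 ± 0.20). Gfra1 rose from 14.9 to 28.1 FPKM (0.92 ± 0.19) and Gdnf from 8.73 to 14.9 FPKM (0.77 ± 0.20). Their proteins meet Ncam1 in its role as a GDNF receptor, and Ncam1 did not pass. Whether these RNAs lie in the same cells cannot be read from whole-gut values. Fgfr2 also rose (0.60 ± 0.18), as did Pak1 and Prnp, the last pair named after their values were seen. Fgfr1, an interaction partner of Ncam1, stood at 51.4 and 45.8 FPKM and did not pass. With the normal deviate 1 gene of the list was lower and 3 were higher.

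Of 15 other tested neural adhesion genes of the immunoglobulin superfamily, 2 fell and 1 rose. Negr1 fell from 4.48 to 2.55 FPKM (-0.81 ± 0.27) and Cadm1 had a log2 fold change of -0.35 ± 0.18 (in the authors' deposited table q = 0.0113). Alcam rose from 25.5 to 39.2 FPKM (0.62 ± 0.17). Bsg was the highest of the genes that did not pass, at 211 and 218 FPKM. Over all 69 tested partner and related genes 14 fell and 11 rose, or 20.3% and 15.9%. With the normal deviate 3 were lower and 5 higher. Among the 14 falls, Cntn4, Cntn6 and Ptprz1 were tested only through their wildtype value.

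**Figure D3:**
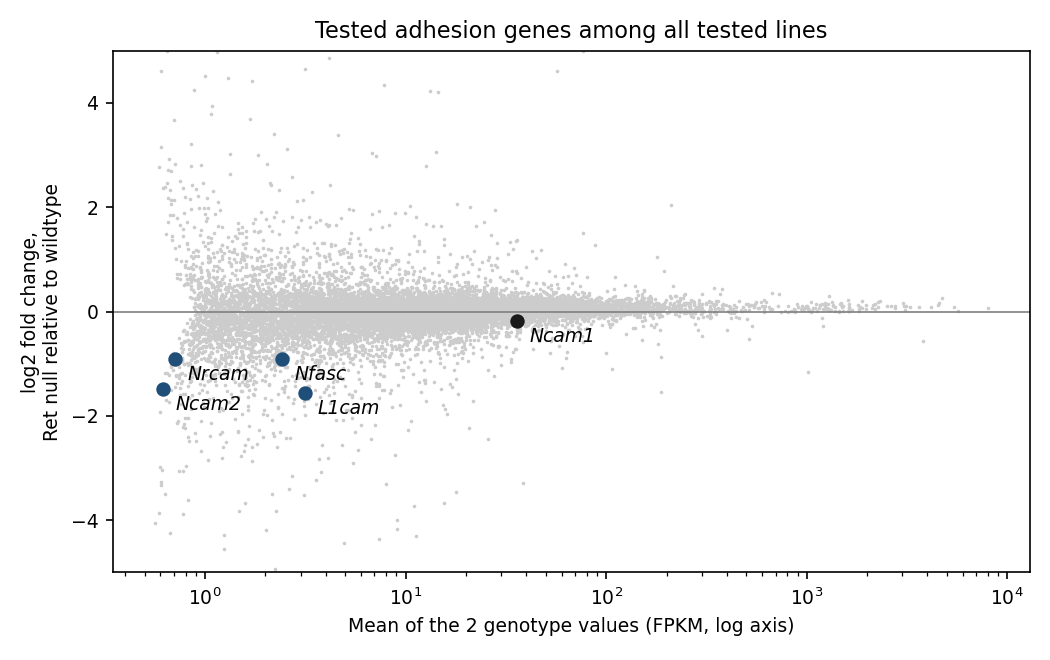
Log2 fold change against the mean of both genotype values (log axis) for all tested lines in grey, with the 5 tested adhesion genes marked, blue where they fell; 18 lines beyond 5 on the vertical axis are not drawn. L1cam and Nfasc lie below most lines of their level, Ncam1 lies near 0, and Nrcam and Ncam2 lie at the left edge, where a line could be tested only through its higher genotype value.

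Most neural markers moved in the same direction as the L1 genes. Of 13 neuronal markers 12 fell and 0 rose, and their summed level went from 206 to 108 FPKM. Gap43, the fall among the signalling partners above, is 1 of these 12. Tubb3, Elavl3 and Elavl4, a neuronal tubulin and a pair of neuronal RNA-binding proteins, had log2 fold changes of -1.78, -1.48 and -1.47. Of 11 enteric neural crest markers 8 fell and 1 rose, with the regulator Sox10 at -1.66. They summed to 136 FPKM in wildtype against 103 FPKM in Ret null gut. The largest term of both sums was Hand2, which rose from 46.4 to 57.3 FPKM. Ednrb (18.8 and 17.5 FPKM) and Phox2a (7.22 and 4.25 FPKM) did not pass. Hand2, Ednrb and Phox2a were named after their values were seen. Of 4 tested glial markers 3 fell, including Dhh and Cdh19, summing over all 7 to 23.4 and 16.2 FPKM. These RNAs come from whole guts, in which fewer cells of a type and less RNA per cell cannot be told apart.

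Set against a neuronal gene, the adhesion genes differed among themselves. The ratio of L1cam to Elavl4 was 1.04 in wildtype and 0.969 in Ret null gut, and that of Ncam2 to Elavl4 was 0.200 and 0.197. For these genes the ratio hardly moved. The ratio of Nfasc to Elavl4 was 0.691 in wildtype and 1.02 in Ret null gut, and that of Nrcam was 0.202 and 0.297. Ncam1 went from 8.39 to 20.4 times the level of Elavl4. Against Tubb3 the ratio of L1cam was 0.199 and 0.232 and that of Ncam1 was 1.61 and 4.89. These ratios have no error, as each rests on a single value per genotype.

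Markers of other tissues moved as well. Among 8 tested markers of somite and skeletal muscle 7 fell, including Myh3, Myog and Acta1, and the 10 listed genes summed to 111 and 16.6 FPKM. Embryonic muscle is known to carry Ncam1. Among 8 tested markers of the nephric and gonadal ridge, 7 fell and 1 rose, led by Calb1, Pax2 and Emx2, with sums of 104 and 72.8 FPKM, and nephric epithelium is known to carry L1cam. Cardiac markers, of which 3 of 5 tested fell and 1 rose, summed to 97.9 and 18.8 FPKM. Most of the wildtype sum was Actc1, which fell from 69.4 to 7.17 FPKM. Myl4 also fell and Nkx2-5 rose, while Myl7 did not pass (4.43 and 2.96 FPKM). Nppa (0.251 and 0.230 FPKM) and Myh6 (0.282 and 0.0951 FPKM) were not tested, so the list says little of cardiac tissue as such. Endothelial markers summed to 136 and 110 FPKM, with Emcn, Tek and Kdr the 3 of 5 that fell. The part of these tissues in the falls of the adhesion genes was not tested.

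In the opposite direction, 9 of 9 gut epithelium markers rose, led by Foxa2, Sox2 and Foxa1, with sums of 115 and 258 FPKM. Of 9 mesenchyme and smooth muscle markers 8 rose, including Barx1, Myh11 and Actg2, with sums of 323 and 785 FPKM. All 8 hepatic markers rose, with Alb, Afp and Apoa2 in front, and sums of 22.4 and 312 FPKM. Genes of both gut lists were detected in both genotypes, but at unlike levels, and the tissue label says only gut. Barx1 went from 4.46 to 109 FPKM, Foxa2 from 1.32 to 7.09 FPKM and the hepatic Alb from 0.433 to 72.8 FPKM. Whether the same stretch of gut was taken in both genotypes is not in the labels. Neurons outside the gut were also looked for. Of the spinal cord and hindbrain markers Olig2 was listed at 0 in both genotypes, and the list summed to 6.68 and 9.05 FPKM. Pax6, Lhx3 and Dbx1 lay under 0.871 FPKM in both genotypes and were not tested. Nkx6-1 (0.649 to 3.57 FPKM) and Mnx1 (0.367 to 2.29 FPKM) rose and Irx3 fell (in the authors' deposited table q = 0.00145 for Mnx1 and for Irx3). Whether the RNA of Nkx6-1 and Mnx1 came from neurons was not tested. Sensory ganglion markers summed to 20.8 and 18.1 FPKM, with Ntrk2 and Ntrk3 falling and Isl2 rising, while Pou4f1, named after its value was seen, was at 0.0900 and 0.0769 FPKM.

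**Figure D4:**
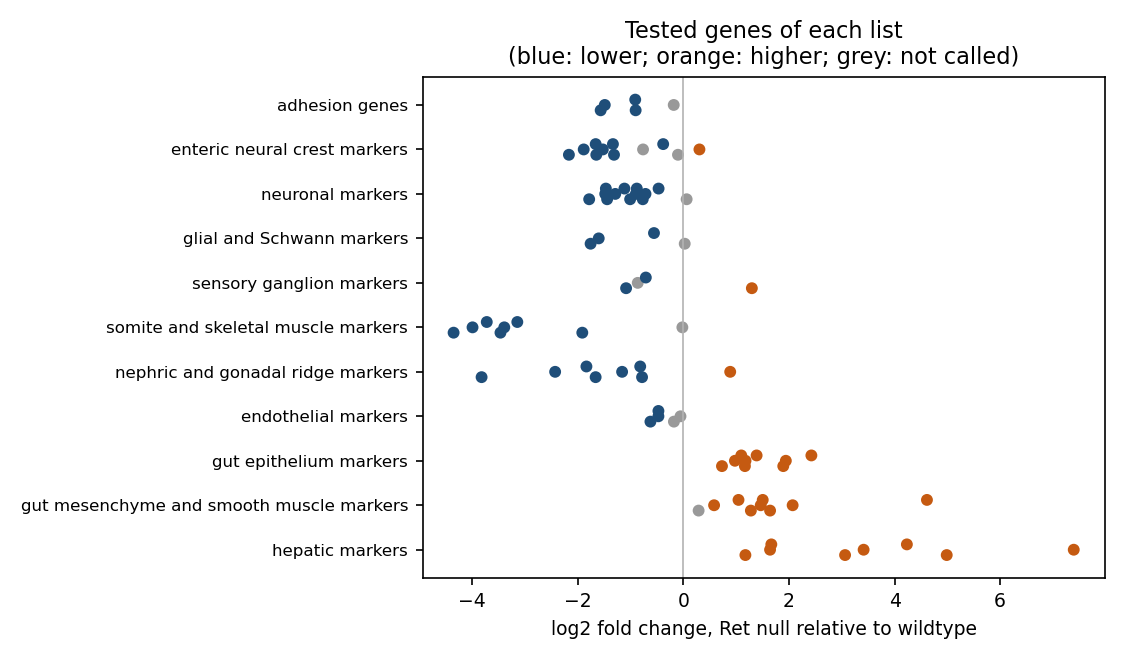
Log2 fold change of each tested gene in the adhesion set and in 10 marker lists, blue where it fell, orange where it rose and grey where it did not pass. The 4 falling adhesion genes lie within the ranges of the neuronal and enteric crest markers, and also within those of the glial, nephric and muscle markers. Ncam1, which did not pass, lies within these ranges too. Epithelial, mesenchymal and hepatic markers lie above 0.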

How the data were processed

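Guts of mouse embryos (3 wildtype and 3 Ret null samples) were sequenced as polyadenylated RNA in paired reads, per the labels. The submitters' processing notes list Picard, TopHat2, Cufflinks, Cuffdiff and build mm10. Nothing on versions, settings or annotation is given in the sources used here. The deposited table holds 1 FPKM value per genotype and gene, which the authors made from that genotype's libraries, with their p-value, q-value and test statistic, a score. Its columns name the genotypes w and h, read here as wildtype and homozygous null. Of 23234 lines, 1 with records run together was left out, and the authors had tested 13430. Log2 fold changes were recomputed from FPKM, and a value at 0 was given none. Adjusting the deposited p-values by Benjamini-Hochberg gives the deposited q-values to within 5.9e-05, and the smallest p, 5e-05, is shared by 867 lines. With no value per sample, no test over samples could be run, and nothing says the samples came from separate litters.

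The alternative p read the test statistic directly as a normal deviate, adjusted over all tested lines, and called 604 lines in place of 1956. Its code was run on simulated statistics that were drawn as normal deviates. That run cannot show whether the authors' statistic is one. Other alternatives were q thresholds, FPKM minimums, a 1.5-fold minimum, pseudocounts and centring. The members and lists were chosen with earlier results of these data known. Named are all members, up to 4 called genes and the highest uncalled gene of each partner list, and up to 3 called genes of each marker list; some genes that the rule takes are left out. Nectin genes were matched by their older symbols. Gene models are from GENCODE M21 (GRCm38, the same build as mm10) and file starts, which count from 0, were raised by 1. Computations used Python 3.11.15, pandas 2.3.3, scipy 1.17.1 and statsmodels 0.14.6.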

Additional observations from a re-analysis of the deposited data

How the results depend on the processing

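The 4 falls among the adhesion genes were kept at q under 0.01 and with a 1.5-fold minimum. At q under 0.1, which cannot lose a call, no further member fell. Nrcam and Ncam2 were tested only through their wildtype value under each of these settings. Under any of the 6 settings 0 members were called higher, though only q under 0.1 and the normal deviate could have added a call. A minimum of 1 FPKM left 2 (L1cam and Nfasc) because Nrcam and Ncam2 lie below it, and a minimum of 5 FPKM left 0 because only Ncam1 reaches it. With the test statistic read as a normal deviate 2 passed, L1cam and Nfasc, and the cause of the difference from the deposited p was not tested. Among partner genes the 14 falls became 9 with a 5 FPKM minimum, 7 with a 1.5-fold minimum and 3 with the normal deviate, of which 2 are among the 14. The 11 rises became 6 with a 1.5-fold minimum and 5 with the normal deviate. Adding 1 FPKM moved the log2 fold change toward 0 by more than its error in 4 of 5 tested members, L1cam to -1.14 and Nfasc to -0.63, and turned none. No paired analysis was possible because the table holds 1 value per genotype, and for the same reason no sample could be left out. Depth is unknown, and genes near or under 1 FPKM are the least certain.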

Other observations

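Gldn, encoding gliomedin, a secreted ligand of neurofascin and Nrcam at peripheral nodes, was chosen after its value was seen. Its wildtype value was 1.32 FPKM and its Ret null value 0.158 FPKM. The latter lies under 0.871 FPKM, so Gldn was tested only through its wildtype value. The log2 fold change of Gldn was -3.06 ± 0.89, farther from 0 than that of any of the 8 adhesion genes. It did not pass in the authors' deposited table (q = 0.244), while its test statistic taken as a normal deviate gave an adjusted p of 0.0179. Of the partner genes it was the call that the normal deviate added.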
